A study of Mus musculus with 6 samples.

Results

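Homing and adhesion receptors decide where a developing T cell stops and which cells it touches in the thymus. RNA of 9 such genes was followed in sorted CD4+CD8+ double-positive thymocytes, a stage on the way to mature alpha-beta T cells. The genes were the chemokine receptors Ccr9, Ccr7 and Cxcr4, the integrin subunits Itgae, Itgb7 and Itga4, the adhesion receptors Cd44 and Pecam1, and Emb, which encodes embigin. They were taken by name, not by their values, from the 8511 genes that the arrays' annotation pairs with a probe set of 1 symbol, and all 28 of their probe sets were used.

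The groups were double-positive cells of Sox13 transgenic mice and of wild-type littermates, in both cases female C57BL/6 mice of 6 weeks. Each genotype had 3 arrays. Experiment 1 used the Affymetrix Mu11K A and Mu11K B arrays, whose probe sets are different ones, and experiment 2 the U74A version 2 array, with 1 array per genotype and type. Thymocytes of 2 or more mice were pooled for a sort, so the values carry no spread between single mice. The promoter that drives the transgene is not given in the sources used here.

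Values are scaled intensities, brought to a trimmed mean of 500 on every array, and 100 was taken as the floor below which a value has no order. Where 1 genotype was at the floor, the fold is given as "at least". Sox13 itself had an intensity of 5951 in the transgenic sample of experiment 1, against a value below the floor in the wild type, and of 3832 against 599.6 in experiment 2. Double-positive markers were detected in both genotypes. All 9 probe sets for double-positive markers on the Mu11K arrays lay above the floor in both genotypes, as did 12 of 12 in the transgenic and 11 of 12 in the wild-type sample on U74A. On U74A the coreceptor gene Cd8a read 15638 in the transgenic and 17759 in the wild-type sample, and Cd4 5040 and 6496. Other markers of the stage differed on Mu11K A, where the recombinase gene Rag2 read 459.8 in the transgenic and 1871 in the wild-type sample, Cd1d1 308.3 and 669.2, and the pre-T cell receptor gene Ptcra 952.9 and 312.3. On U74A Rag2 and Cd1d1 differed little, at 2119 and 1315 in the transgenic and 2008 and 1360 in the wild-type sample. Ptcra was again higher there, at 2247 in the transgenic and 1503 in the wild-type sample.

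CCR9 binds the chemokine CCL25 of thymic epithelium and of the small intestine. CXCR4 binds CXCL12 and serves immature thymocytes of the cortex. CCR7 binds CCL19 and CCL21 and guides cells into the medulla after positive selection. The integrin chains encoded by Itgae and Itgb7 pair to bind E-cadherin, and the Itga4 chain pairs with that of Itgb7 to bind MAdCAM-1 or with integrin beta 1 to bind VCAM-1. CD44 is the hyaluronan receptor of early progenitors and memory T cells. PECAM-1 is an immunoglobulin-family receptor that binds itself and is best known from endothelium, platelets and leukocytes. Embigin, of the same family, accompanies monocarboxylate transporters to the cell surface.

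Upstream sequences are shown for Emb and Itgb7, because these were the members above the floor in both genotypes and both experiments whose levels differed most, in opposite directions. Each is the 250 bases before the transcript start in the RefSeq promoter table (GRCm38.p6), read 5′ to 3′ on the gene's strand. The Emb window is chr13:117220323-117220572 on the plus strand and ends at the base before the annotated gene. The Itgb7 window is chr15:102231936-102232185 on the minus strand and lies inside the annotated Itgb7 gene, upstream of an internal start. Capitals mark matches to any of 3 short motifs on either strand.
Emb: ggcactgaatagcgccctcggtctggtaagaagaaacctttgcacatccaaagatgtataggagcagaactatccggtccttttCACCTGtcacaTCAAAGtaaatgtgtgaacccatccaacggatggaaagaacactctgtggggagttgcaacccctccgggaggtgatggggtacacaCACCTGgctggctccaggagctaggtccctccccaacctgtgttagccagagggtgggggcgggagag
Itgb7: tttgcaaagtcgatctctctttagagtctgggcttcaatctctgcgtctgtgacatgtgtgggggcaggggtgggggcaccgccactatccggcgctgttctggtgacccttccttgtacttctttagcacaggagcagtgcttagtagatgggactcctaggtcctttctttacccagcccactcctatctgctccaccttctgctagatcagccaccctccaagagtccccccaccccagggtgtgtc
The motifs were AACAAT, a SOX-type core, CTTTGA, a TCF-type core, and the E-box CACCTG, none of which overlap in these windows. Of the 32851 promoter windows of this length, 9.42% held AACAAT, 13.8% CTTTGA and 17.2% CACCTG. The Emb window held 1 CTTTGA match and 2 CACCTG matches and no AACAAT, and the Itgb7 window held none of the 3 motifs. Promoters of 6 members were in the table. Among the other 4, Ccr9 had 1 CACCTG match, and Cxcr4, Itga4 and Cd44 had none of the 3. These matches describe letters, and binding was not measured.

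Of the 28 probe sets, 16 exceeded the floor in at least 1 genotype, 10 of them in both genotypes and 6 in 1 genotype only. The remaining 12 were at the floor in both genotypes. The plot of levels shows every probe set.

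**Figure D1:**
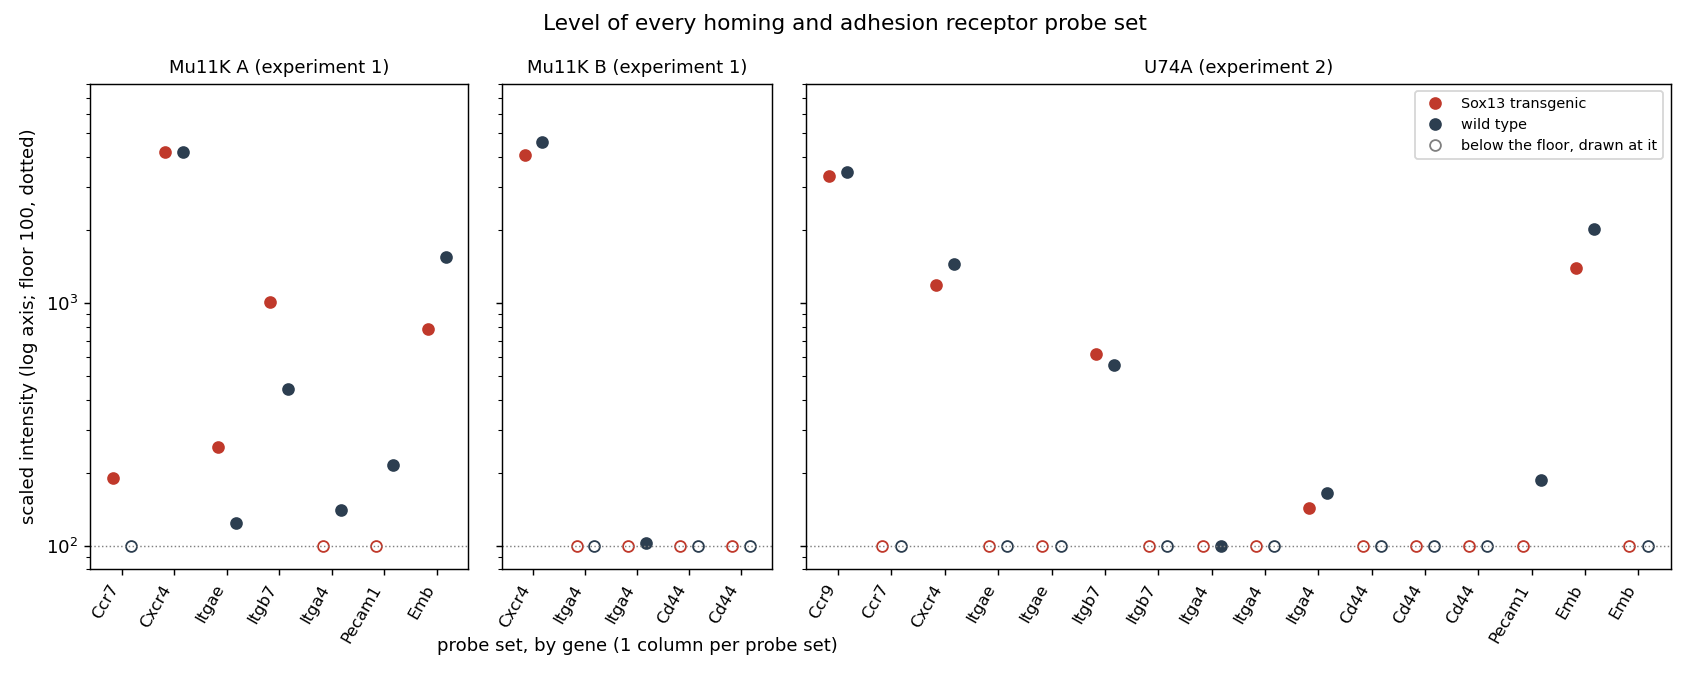
Scaled intensity (log axis, floor at 100) of each of the 28 probe sets, one column per probe set, on Mu11K A, Mu11K B and U74A, with the Sox13 transgenic sample left of the wild type in each column and open circles for values below the floor. Cxcr4 and Ccr9 sit high in both genotypes, Itgb7 and Itgae are higher in the transgenic sample on Mu11K A, Emb is lower in the transgenic samples of both experiments, and all 5 Cd44 columns are at the floor.

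Whether Sox13 transgenic cells differed from wild-type cells was asked in both experiments. No member passed the test over both. The largest differences were a lower level of Pecam1 and of Emb in the transgenic samples of both experiments, and a higher level of Itgb7 and Itgae in the transgenic sample of experiment 1. The main chemokine receptors of the stage, Ccr9 and Cxcr4, differed little. Of the 9 members, 5 were measured in both experiments and tested with limma over 3237 genes, with n = 2 experiments, and 0 of these 5 had an adjusted p under 0.05 against 2 at an unadjusted p under 0.05 (Pecam1 and Emb). Pecam1 entered the test only through its wild-type values, which fixed the direction of its ratio, so its p is no support for that direction. Over all genes the same test called 0.154% higher and 0.0% lower, and 6.43% had an unadjusted p under 0.05. In sorted bulk samples, fewer cells that express a gene and less RNA per cell cannot be told apart.

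Ccr9 was read by 1 probe set, on U74A. Its level was 3345 in the transgenic sample and 3475 in the wild type of experiment 2. The transgenic over wild-type log2 ratio was -0.06, small beside the SD of 0.35 over the log2 ratios of all 7109 probe sets above the floor on U74A. This rests on 1 pair of pooled samples and has no replicate check.

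Cxcr4 was read by 1 probe set on each array type. On Mu11K A it read 4199 in the transgenic and 4202 in the wild-type sample. On Mu11K B it read 4064 in the transgenic and 4614 in the wild-type sample, and on U74A 1185 in the transgenic and 1447 in the wild-type sample. The wild-type value was thus the higher one in all 3 pairs, by at most 1.22-fold, although the Mu11K A ratio turned to a log2 value of 0.18 after median scaling. The log2 ratio averaged -0.19 ± 0.34 over the experiments (limma SE, n = 2, adjusted p = 0.947), with a 95% interval of -0.92 to 0.54. With an interval of this width, equal levels were not shown.

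Ccr7, the receptor of cells that enter the medulla, was near the floor. On Mu11K A it read 189.7 in the transgenic sample, against 92.4 in the wild type, which is below the floor, a difference of at least 1.90-fold. Ccr7 exceeded the floor there in the transgenic sample only, which fixed the direction of its ratio. On U74A it read 77.1 in the transgenic and 94.0 in the wild-type sample, both below the floor. Ccr7 was therefore measured in experiment 1 only and was not tested. Markers of mature single-positive thymocytes, which carry CCR7, differed in that experiment. Their 11 probe sets on Mu11K A were above the floor 8 times in each genotype, with a summed level of 13570 in the transgenic and 4929 in the wild-type sample. Klf2, a transcription factor gene of mature cells, read 481.8 in the transgenic and 302.6 in the wild-type sample on Mu11K A, and was at the floor on U74A, while S1pr1, the receptor for thymic exit, was at the floor in both genotypes on both array types that carry it. On U74A the summed level of that list was 14415 in the transgenic and 9660 in the wild-type sample, with 11 and 10 of 15 probe sets above the floor. The class I genes H2-D1 and H2-K1, which most cell types express, and Socs3 made up most of these sums. The part of such cells in the Ccr7 values was not tested.

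Among the integrin subunits, Itgb7 had the largest difference. On Mu11K A it read 1008 in the transgenic and 443.2 in the wild-type sample, a 2.27-fold higher level. On U74A its brighter probe set read 617.6 in the transgenic and 557.1 in the wild-type sample, a 1.11-fold higher level, and its other probe set was below the floor in both. The direction was the same in both experiments and the size was not, with log2 ratios of 1.18 and 0.15. The mean was 0.67 ± 0.37 (limma SE, n = 2 experiments, 95% interval -0.13 to 1.46, adjusted p = 0.796), so Itgb7 did not pass.

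Itgae, the alpha partner of that chain in the E-cadherin receptor, read 255.1 in the transgenic and 124.5 in the wild-type sample on Mu11K A, a 2.05-fold higher level. Both of its U74A probe sets lay below the floor in both genotypes, at 60.6 and 7.04 in the transgenic and 45.9 and 5.23 in the wild-type sample. The difference of Itgae thus stands on 1 pair of arrays, and its wild-type value was close to the floor. With a floor of 200 its log2 ratio on Mu11K A was 0.35, against 1.04 with the floor of 100.

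B cells also carry Itgb7, and the summed level of their markers was higher in the transgenic samples, while single markers differed in direction. Of 15 B cell probe sets on Mu11K A, 8 were above the floor in each genotype, with summed levels of 9597 in the transgenic and 5701 in the wild-type sample. The sums were 20930 and 13010 on Mu11K B (4 of 8 above the floor in each) and 18544 and 15683 on U74A (13 and 9 of 29 above the floor). Ighm, the class II gene H2-Aa and Cd74 made up most of these sums. Of the B cell receptor chains on U74A, Cd79a read 177.3 in the transgenic and 100.6 in the wild-type sample and Cd79b 660.6 and 775.0, and Cd79a was at the floor in both genotypes on Mu11K B. Ms4a1 read 699.2 in the transgenic and 769.8 in the wild-type sample on Mu11K A, Pax5 173.1 and 191.1 on U74A, and Cd22 was at the floor in every sample. On U74A both Ms4a1 probe sets were higher in the transgenic sample, at 157.6 and 200.8, with the wild type below the floor. Blk was higher in the transgenic sample on all its probe sets. The brightest on Mu11K A read 712.5 in the transgenic and 253.8 in the wild-type sample, and that on U74A 359.6, with the wild type below the floor. Among markers of natural killer and innate-like cells, the granzyme gene Gzma read 8604 in the transgenic and 1535 in the wild-type sample on Mu11K B and 1262 and 605.2 on U74A. It alone of that list was above the floor (1 of 2 probe sets on Mu11K B, 1 of 6 on U74A, 0 of 2 on Mu11K A), and Klrd1, Ncr1 and Zbtb16 were at the floor. The part of either cell type in the Itgb7 and Itgae values was not tested.

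Itga4, the alpha 4 chain, was faint on all 6 of its probe sets. The probe set on Mu11K A read 54.9 in the transgenic sample, below the floor, and 141.2 in the wild type, or at least 1.41-fold lower in the transgenic sample. The brightest on U74A read 142.9 in the transgenic and 164.6 in the wild-type sample. Of the other 4, 1 on Mu11K B and 1 on U74A were above the floor in wild type only, at 102.8 and 100.4, and 2 stayed at the floor. All 4 measured probe sets were lower in the transgenic sample, but 3 of them exceeded the floor in wild type only, which fixed their direction under this scaling. The log2 ratio averaged -0.19 ± 0.34 over the experiments (limma SE, n = 2, adjusted p = 0.947). Because 3 of these 4 ratios are bounds, the value follows the floor, and with a floor of 50 the mean was -0.65 (adjusted p = 0.854, limma). The signs of the 2 faintest ratios turned under loess scaling, to 0.05 on Mu11K B and 0.01 on U74A, and the U74A one also after quantile normalization, to 0.04, and median scaling, to 0.00.

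Cd44 was at the floor throughout. Its 2 probe sets on Mu11K B read -0.345 and -32.8 in the transgenic sample and 21.3 and 40.0 in the wild type. Its 3 probe sets on U74A lay between 2.01 and 25.4 in the transgenic and between 1.21 and 36.4 in the wild-type sample. No ratio can be given, and no difference in Cd44 was detectable at this signal over background. Among progenitor genes that share the early Cd44-positive stage, Kit was below the floor in the transgenic samples and read 115.8 in the wild type on Mu11K B, and Il2ra was at the floor in all samples. Dtx1, a Notch regulator on the same list, read 3221 in the transgenic sample on Mu11K A, with the wild type below the floor, and 1388 against 210.7 on U74A. Notch1 read 3957 in the transgenic and 715.8 in the wild-type sample on Mu11K A. Its Mu11K B probe set read 3747 in the transgenic and 542.7 in the wild-type sample, and the brighter one of U74A 2299 and 2302. Notch3 read 3479 in the transgenic and 1304 in the wild-type sample on Mu11K B, and its U74A values were 757.6 and 483.3. Hes1 and Il7r, also on the list, were at the floor in both genotypes on Mu11K A. On U74A Hes1 was lower in the transgenic sample, at 197.2 against 245.9 in the wild type. Il7r read 102.6 in the transgenic sample there, close to the floor, with the wild type below it. The summed level of the progenitor list was 7178 in the transgenic and 715.8 in the wild-type sample on Mu11K A (2 and 1 of 5 probe sets above the floor), 7226 and 1963 on Mu11K B (2 and 3 of 4) and 5087 and 3468 on U74A (6 and 5 of 8). Notch1, Notch3 and Dtx1 made up most of these sums. The part of progenitor cells in these levels was not tested.

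Pecam1 was above the floor in wild-type samples only. In experiment 1 it read 92.9 in the transgenic sample and 215.3 in the wild type, at least 2.15-fold lower in the transgenic sample. In experiment 2 it read 54.3 in the transgenic sample and 186.5 in the wild type, at least 1.87-fold lower. Both probe sets exceeded the floor in wild type only, which fixed the direction of their ratios. Neither the shared direction nor the interval given next is support for that direction. With the transgenic samples set to the floor, the ratio averaged -1.00 ± 0.34 on the log2 scale (limma SE over 2 experiments, 95% interval -1.73 to -0.27, adjusted p = 0.648), which did not pass. With a floor of 50 the mean was -1.50 (adjusted p = 0.638, limma), and with a floor of 200 the wild type of experiment 2 was below the floor too and the log2 ratio of experiment 1 shrank to -0.11.

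Markers of endothelium and platelets, cells rich in PECAM-1, were mostly at the floor. Of the endothelial probe sets, 0 of 6 on Mu11K A were above the floor in either genotype. On Mu11K B it was 2 of 3 in both, with summed levels of 688.8 in the transgenic and 476.1 in the wild-type sample, and on U74A 1 of 14 in the transgenic and 2 of 14 in the wild-type sample, with summed levels of 632.0 and 979.6. Those above it were Eng and Kdr, while Cdh5, Tie1, Tek, Vwf, Flt1, Emcn and Cldn5 were at the floor wherever they were measured. Platelet markers were above the floor in 0 of 3 probe sets, all on U74A. Myeloid markers, of cells that also carry PECAM-1, had summed levels of 2545 in the transgenic and 2641 in the wild-type sample on Mu11K A (4 of 5 above the floor in each), 718.9 and 642.4 on Mu11K B (2 and 1 of 4) and 1514 and 806.0 on U74A (6 and 4 of 17). Adgre1 and Itgam were at the floor, while other myeloid markers were above it and differed in direction. Ctss read 404.1 in the transgenic and 162.0 in the wild-type sample on Mu11K A, and 570.3 and 241.0 on U74A. Lyz2 read 1627 in the transgenic and 2024 in the wild-type sample on Mu11K A. On U74A its brighter probe set read 255 in the transgenic sample, with the wild type below the floor. Cd14 read 593.2 in the transgenic and 642.4 in the wild-type sample on Mu11K B. The part of endothelial cells, platelets or myeloid cells in the Pecam1 values was not tested.

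Among the 3 members above the floor in all 4 pooled samples of both experiments (Cxcr4, Itgb7 and Emb), Emb had the largest mean difference, though it did not pass. This rank depended on the scaling, since after median scaling the mean log2 ratio was -0.66 for Emb and 0.76 for Itgb7. The Mu11K A probe set of Emb read 782.5 in the transgenic and 1552 in the wild-type sample, 1.98-fold lower in the transgenic sample. On U74A it read 1398 in the transgenic and 2023 in the wild-type sample, 1.45-fold lower. A further U74A probe set was below the floor in both genotypes. The log2 ratio averaged -0.76 ± 0.34 over the experiments (limma SE, n = 2, 95% interval -1.50 to -0.02, adjusted p = 0.769).

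The monocarboxylate transporter partners of embigin were fixed as a list of 4 genes, of which 2 were tested and 0 passed. The transporter gene Slc16a1 was read by 1 probe set on each array type. On Mu11K A it read 404.8 in the transgenic and 721.6 in the wild-type sample. On Mu11K B the transgenic value was 1069 and the wild-type value 2831, and on U74A 136.2 and 156.9. All 3 were lower in the transgenic sample, with log2 ratios of -0.83, -1.40 and -0.20 and a mean over the experiments of -0.66 ± 0.36 (limma SE, adjusted p = 0.796). Slc16a8 had log2 ratios of -0.54 and 0.40, each with 1 genotype at the floor. Slc16a7 was at the floor on U74A. Basigin, the relative of embigin encoded by Bsg, read 2485 in the transgenic and 1849 in the wild-type sample on Mu11K A and 1496 and 1527 on U74A.

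**Figure D2:**
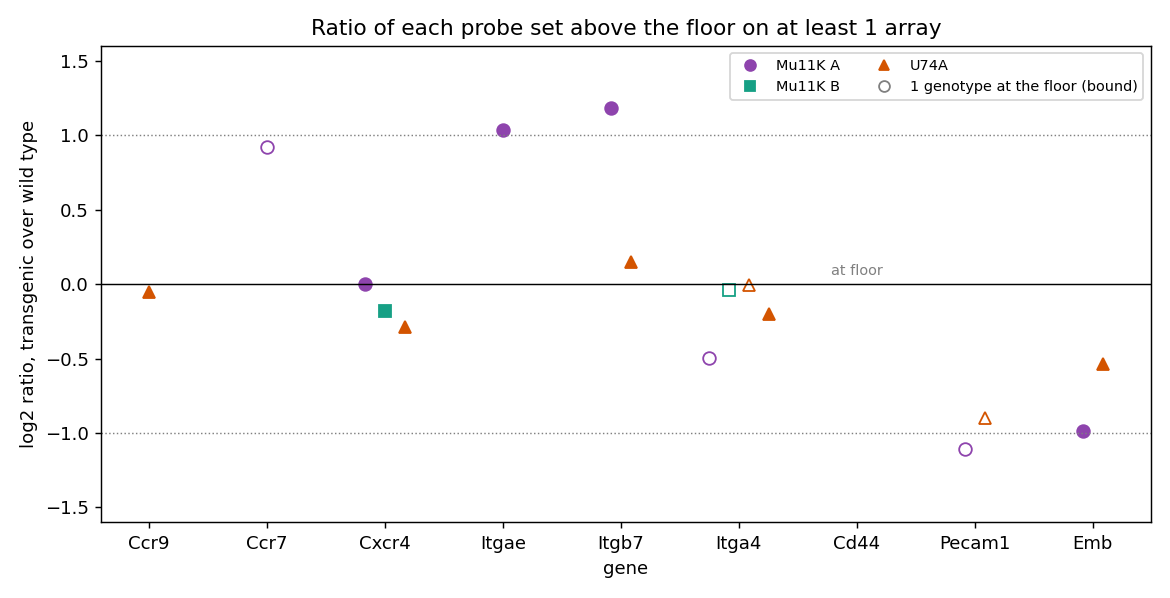
Log2 ratio of transgenic over wild type for each of the 16 probe sets that exceeded the floor in at least 1 genotype, by gene, with a symbol for each array type, open where 1 genotype was at the floor, and dotted lines at a 2-fold difference. Pecam1 and Emb lie below 0 in both experiments, Itgb7 above 0 in both, and Itgae and Ccr7 have a value from Mu11K A only.

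Within an array type there was 1 sample per genotype and no test, so probe sets 2-fold or more apart were counted. On Mu11K A, 2 of 7 member probe sets were 2-fold or more higher in the transgenic sample (Itgae and Itgb7), where 4.56% of all 3882 probe sets above the floor were, and 1 of 7 was 2-fold or more lower (Pecam1), where 11.7% were. Which probe sets counted depended on the scaling, since Ccr7 passed 2-fold after quantile, loess and median scaling (log2 ratios of 1.09, 1.10 and 1.01) and Pecam1 did not after quantile and loess scaling (-0.87 and -0.92). On Mu11K B it was 0 of 2 in either direction, with 6.15% higher and 13.9% lower over all. On U74A it was 0 of 7 in either direction, with 0.971% higher and 0.563% lower over all. Experiment 1 was the more variable of the 2 experiments, the SD of its log2 ratios over all probe sets above the floor being 0.73 for Mu11K A and 0.83 for Mu11K B, against 0.35 for U74A. The members' median log2 ratio on Mu11K A was -0.00, beside -0.07 over all probe sets above the floor. On Mu11K B these medians were -0.11 and -0.15, and on U74A -0.20 and -0.03. Among the 5 tested members, 4 were lower and 1 higher in both experiments, where 30.4% of all tested genes were lower and 23.9% higher in both. After median scaling Cxcr4 had a log2 ratio of 0.09 in experiment 1 and left that count, and Pecam1 and 3 of the 4 Itga4 ratios counted as lower only through wild-type values above the floor. With a floor of 50 Itgb7 had a log2 ratio of -0.08 in experiment 2 and was no longer higher in both.

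**Figure D3:**
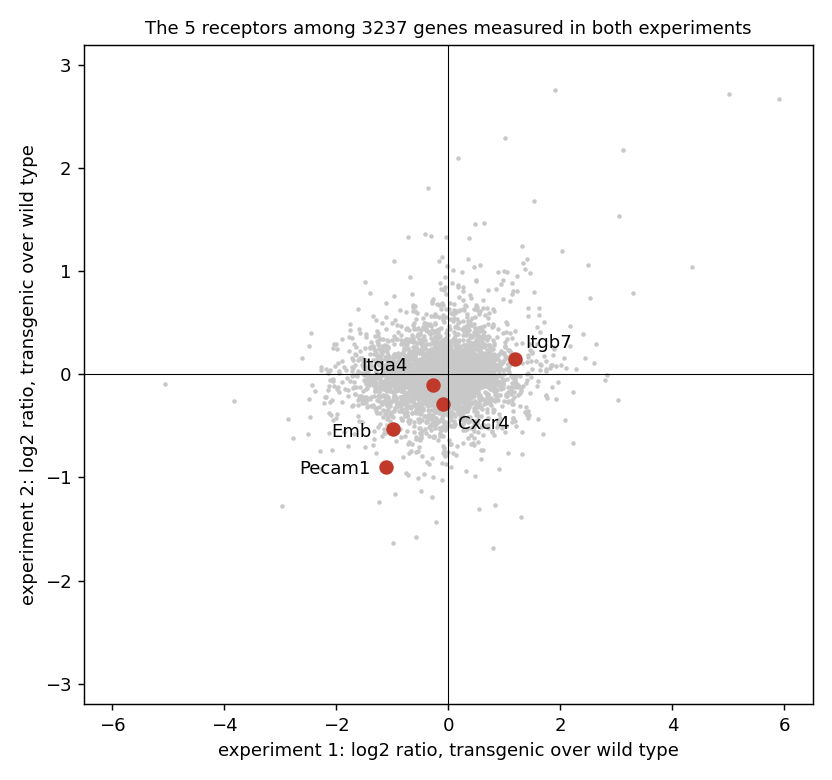
Log2 ratio of transgenic over wild type in experiment 1 (horizontal) and experiment 2 (vertical) for the 3237 genes measured in both (grey) and for the 5 receptors among them (red). Pecam1 and Emb lie to the lower left, Itgb7 to the right near the horizontal axis, and Cxcr4 and Itga4 close to the centre of the cloud.

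Around the members, 6 lists of 146 related genes were followed, of which 113 had a probe set and 51 were tested. In limma, 0 of the 51 passed in either direction and 1 had an unadjusted p under 0.05. Of the 51, 9 were higher and 15 lower in both experiments and 27 had opposite signs. Over all genes tested, 23.9% were higher and 30.4% lower in both, which also stands beside the counts of each list below. The median of the companions' mean log2 ratios was -0.07, beside -0.04 over all genes tested.

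Of the ligands and counter-receptors of the members, 13 genes, 9 had a probe set and 0 were measured in both experiments. The chemokine genes Ccl25 and Cxcl12, products of thymic stroma, were at the floor in every sample, as was Vcam1, the ligand of the alpha 4 beta 1 integrin. Cdh1, which encodes the E-cadherin bound by the Itgae and Itgb7 chains, read 264.8 in the transgenic and 401.8 in the wild-type sample on U74A and was at the floor on Mu11K B. Madcam1, which encodes the MAdCAM-1 bound by the Itga4 and Itgb7 chains, read 163.4 in the transgenic and 190.3 in the wild-type sample on its brighter U74A probe set. Fn1, the fibronectin gene, read 192.4 in the transgenic sample on U74A, with the wild type below the floor.

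Of 23 other chemokine and egress receptor genes, 18 had a probe set and 2 were tested, both lower in both experiments and neither past the test. Ccr4, a receptor of post-selection thymocytes, had log2 ratios of -0.07 and -0.30, and the prostaglandin receptor gene Ptger4 of -0.96 and -0.00. The transgenic value of Ccr4 was below the floor in both experiments, and that of Ptger4 in experiment 1. Only the wild type exceeded the floor in those pairs, which fixed the direction of these ratios.

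Of 20 other integrin genes, 15 had a probe set and 7 were tested, with 0 past the test, 5 lower and 1 higher in both experiments. Over all genes tested, 30.4% were lower and 23.9% higher in both. Itgb1, the beta 1 chain that pairs with alpha 4, read 1194 in the transgenic and 2410 in the wild-type sample on Mu11K B, and its brighter U74A probe set read 4954 and 5075. Its mean log2 ratio was -0.54 ± 0.36 (limma SE, adjusted p = 0.858). Itga6 was likewise lower mainly in experiment 1, with log2 ratios of -1.11 and -0.15. Itgav had -0.39 and -0.43, and Itgal, the alpha chain of LFA-1, -0.10 and -0.20. Itgb5 had 0.64 and 0.27.

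Of 34 other adhesion receptor genes, 27 had a probe set and 13 were tested, with 0 past the test, 4 higher and 1 lower in both experiments. Those higher in both were Cd82 (log2 ratios of 1.06 and 0.04), Cd47 (0.57 and 0.24), Cd6 (0.34 and 0.08) and Icam2 (0.12 and 0.10). The tetraspanin gene Cd81 was lower in both, at -0.34 and -0.38.

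Of 52 genes that link these receptors to the cytoskeleton, 41 had a probe set and 27 were tested, with 0 past the test, 4 higher and 6 lower in both experiments. Rdx, which encodes the membrane-to-actin linker radixin, read 483.4 in the transgenic and 2532 in the wild-type sample on Mu11K B and 1580 and 1765 on U74A (mean log2 ratio -1.27 ± 0.46, limma SE, adjusted p = 0.694). Cytip, a regulator of integrin adhesion, had log2 ratios of -0.30 and -0.42, and Apbb1ip, which recruits talin to integrins, -0.38 and -0.27. Ptk2b, a focal adhesion kinase family member, had 0.66 and 0.17.

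**Figure D4:**
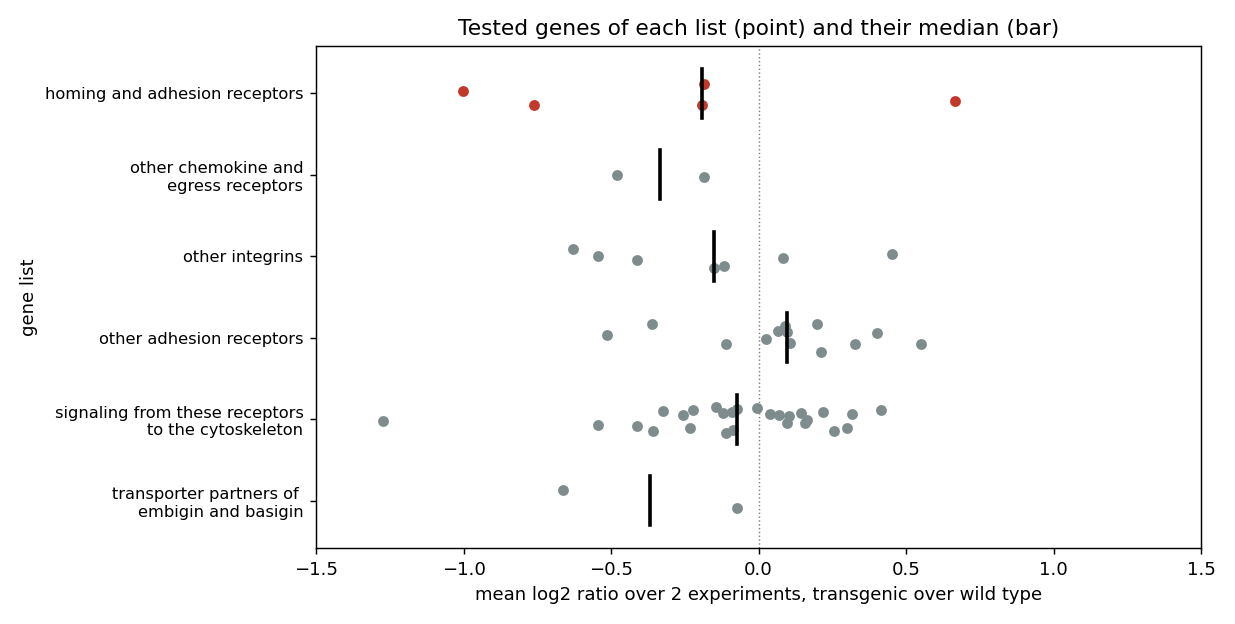
Mean log2 ratio over the 2 experiments, transgenic over wild type, for each tested gene of the 9 receptors (5 tested, red) and of the 5 companion lists with tested genes (grey), with the median of each list as a bar. Medians lie between -0.37 for the transporter partners and 0.09 for the other adhesion receptors, and that of the receptors is -0.19.

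Genes with the most similar pair of log2 ratios were found by the Euclidean distance over the 2 experiments. They were taken from 2618 or 2619 tested genes with no probe set above the floor in a single genotype only. No neighbours are given for Pecam1, because both of its ratios are bounds set by the floor. For Emb they were Kdm3a (0.0284), Itpr2 (0.0720) and Ipo7 (0.0728). For Itgb7 they were Slc29a1 (0.00789), AW112010 (0.0319) and Maz (0.0557). With 2 ratios per gene, many genes lie close to a member near the centre of the cloud, such as Mkrn1 to Cxcr4 (0.0188).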

How the data were processed

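RNA of sorted double-positive thymocytes was labelled and hybridised to Affymetrix arrays. The deposited unit is a linear intensity for each probe set. Per the labels and series text, Microarray Analysis Software versions 4 and 5 made them, and MAS5 is named for U74A in the submitters' processing notes. The scaling target is not given in the sources used here, and no detection calls were used. Control probe sets were left out, as were 21 Mu11K A probe sets with no wild-type value. Between 46.9% and 57.4% of an array's probe sets lay above the floor, and the number of arrays limits the precision.

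Arrays were brought to a common 2% trimmed mean of 500, values under 100 were set to 100, and log2 was taken. Gene names came from the platform annotation through probe sets with a single symbol, and a check against RefSeq (GRCm38.p6) changed 0 of them. Ratios of a gene's probe sets that exceeded the floor in either genotype were averaged within an experiment, Mu11K A and B being 1 experiment. Limma 3.58.1 (R 4.3.3) tested the mean log2 ratio of the 2 experiments against 0, two-sided, with Benjamini-Hochberg adjustment over 3237 genes at a threshold of 0.05. The prior had 12.1 degrees of freedom and so outweighs a gene's own spread. The fit was tested on simulated data. Pairing is by array type, as the series text describes the experiments.

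The members, the companion and marker lists and the tests were chosen with earlier results of these data known. All members were named, together with up to 4 genes per companion list and direction with the same sign in both experiments, and genes among the 3 nearest to a tested member, except for Pecam1 and Itga4, whose ratios rest on the floor. Companion values outside that rule (Bsg, Slc16a7, Slc16a8 and the ligands) and the marker genes were named for their known roles after their values were seen. Summed marker levels count values above the floor. Alternatives were quantile, median and loess scaling, floors of 50 and 200, 2 other filters, the brightest probe set, an unpaired fit and each experiment alone.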

Additional observations from a re-analysis of the deposited data

How the results depend on the processing

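No member passed in limma under any of the 9 alternatives with a test, with 0 to 2 at an unadjusted p under 0.05, and 0 companion genes did, with 0 to 3. The smallest adjusted p among members was 0.449 (Pecam1, median scaling), and in the unpaired fit, without the replicate block and with different array types in its spread, all were 0.999. Counts of member probe sets 2-fold apart changed with the floor and the scaling. With a floor of 50 they were 5 on Mu11K A, 1 on Mu11K B and 1 on U74A, and with a floor of 200, 1 on Mu11K A, against 3, 0 and 0 with the floor of 100. With a floor of 50 the median log2 ratio of the 2 measured Mu11K B probe sets was -0.61, against -0.11. Pecam1, Itga4 and Ccr7 had a genotype at the floor of 100, and the wild-type value of Itgae lay under the floor of 200. On Mu11K A, 3 higher and 0 lower were counted after quantile and loess scaling and 3 higher and 1 lower after median scaling, against 2 higher and 1 lower. Quantile, median and loess scaling moved Mu11K A ratios by a median of 0.15, 0.18 and 0.12 log2 and Mu11K B ratios by 0.20, 0.18 and 0.17, and U74A ratios by 0.01, 0.01 and 0.02. The mean log2 ratio of each tested member kept its sign under every alternative that gave one. At the floor of 100, the Pecam1 ratios and most Itga4 ratios had only the wild type above the floor. Their kept sign is therefore no support for a lower level in the transgenic samples. Each experiment alone gave log2 ratios of -0.90 to -1.11 for Pecam1, -0.53 to -0.99 for Emb, 0.15 to 1.18 for Itgb7, -0.10 to -0.27 for Itga4 and -0.09 to -0.29 for Cxcr4. Pecam1 and Itga4 could not be tested with a floor of 200 or with probe sets above the floor on both arrays only.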
